A study of Mus musculus with 1 sample.

Results

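The NF-kB subunits and their feedback inhibitors were described in the alveolar macrophages (AMs) of wild-type lung. The group was chosen by name and holds 10 of the 11918 genes listed in the library. It takes in the 5 subunit genes Nfkb1, Nfkb2, Rel, Rela and Relb and the 5 inhibitor genes Nfkbia, Nfkbie, Nfkbiz, Nfkbid and Tnfaip3. All 10 were listed and all 10 had a UMI. Their detection, their level and their correlation with each other and with the cytokine genes Cxcl2 and Tnf were measured across 2055 cells.

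The cells came from the lungs of 1 mouse labelled wild-type, of FVB/NJ stock backcrossed to C57BL/6 and 8 to 12 weeks old, and no treatment is named. It carried floxed Hdac3 alleles and served as the control without Cre, but the sources differ on the Cre line it was the control for, which is Csf1rCre in the series' design and Cd11cCre in the study's text. In the paper's methods, adult lungs were minced and digested with collagenase D to free the cells. The cells were sorted as CD45+CD11c+SiglecF+, and 5000 sorted cells were loaded for the 10x Genomics 3' assay. In this assay each transcript end that is captured carries a unique molecular identifier (UMI) and is counted once. With 1 mouse and 1 library there was no replicate and no comparison between animals. Every interval below is a 95% interval for counting error only, and no p-value is given.

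The genes listed in the library held 7222978 UMIs. Single cells ranged from 1143 to 8603 UMIs around a median of 3278. Of the 16 fixed AM markers, 15 were listed, and each of the 15 had a UMI in at least 31.7% of cells, with Chil3 in 100% and Siglecf in 41.4%. Of markers of other cells, 4 of 7 were listed for neutrophils, 4 of 7 for monocytes, 6 of 8 for epithelium, 3 of 6 for B cells, 1 of 8 for T and NK cells and 0 of 4 for red cells. Fn1 (52.7% of cells), Epcam (58.1%) and Cd2 (44.9%) held most or all UMIs of the monocyte, epithelial and T and NK lists. Sftpc, a surfactant gene of lung epithelium, had UMIs in 141 cells (6.86%), and Scgb1a1, a secretoglobin of airway epithelium, in 113 cells (5.50%). RNA free in the droplets can give such UMIs, and because all cells were sorted as AMs there was no cell type without the NF-kB genes to set a background for them. Mitochondrial genes took over 5% of the UMIs in 384 cells (18.7%).

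NF-kB is a family of dimeric transcription factors that is held in the cytoplasm of resting cells by IkB proteins and released when signals from Toll-like, TNF or IL-1 receptors lead to destruction of the IkB. The dimers then enter the nucleus and switch on cytokine and chemokine genes, and among their targets are genes for their own inhibitors, so that a burst of activity restrains itself. Macrophages of the airspaces meet inhaled particles and microbes and use this system to call neutrophils with chemokines such as Cxcl2.

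The promoters are shown because the letters that NF-kB dimers bind were present in several of them. RefSeq promoter windows of 250 bases before and 50 bases after a start site on GRCm38.p6 were found for 7 of the 10 members and for Cxcl2 and Tnf. Windows of Nfkbiz, Nfkb1 and Relb were not used here. The 250 bases before the start were searched on both strands for the NF-kB consensus, a motif of 10 bases. In the sequences below, which run 5' to 3' along the strand of the gene and stop at the first base of an annotated exon, capitals mark bases covered by a consensus match on either strand.
Nfkbia, chr12:55492648-55492897, minus strand: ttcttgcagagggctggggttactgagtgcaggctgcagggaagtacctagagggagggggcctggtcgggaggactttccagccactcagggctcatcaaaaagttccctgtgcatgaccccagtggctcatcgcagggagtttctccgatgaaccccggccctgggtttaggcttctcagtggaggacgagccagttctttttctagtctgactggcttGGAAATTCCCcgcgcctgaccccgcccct
Nfkbid, chr7:30422156-30422405, plus strand, second of 3 starts: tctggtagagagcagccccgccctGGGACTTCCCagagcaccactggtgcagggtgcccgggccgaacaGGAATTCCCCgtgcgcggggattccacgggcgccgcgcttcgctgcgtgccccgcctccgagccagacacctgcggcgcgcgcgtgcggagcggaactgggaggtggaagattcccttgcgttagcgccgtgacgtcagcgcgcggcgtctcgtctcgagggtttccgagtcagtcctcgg
Rel, chr11:23770971-23771219, minus strand: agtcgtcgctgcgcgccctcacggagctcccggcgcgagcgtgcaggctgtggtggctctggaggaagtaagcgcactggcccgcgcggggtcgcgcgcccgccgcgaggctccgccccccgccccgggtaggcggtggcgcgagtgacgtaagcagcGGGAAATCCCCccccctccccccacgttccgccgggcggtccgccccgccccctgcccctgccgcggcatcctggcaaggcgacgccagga
Cxcl2, chr5:90903649-90903870, plus strand: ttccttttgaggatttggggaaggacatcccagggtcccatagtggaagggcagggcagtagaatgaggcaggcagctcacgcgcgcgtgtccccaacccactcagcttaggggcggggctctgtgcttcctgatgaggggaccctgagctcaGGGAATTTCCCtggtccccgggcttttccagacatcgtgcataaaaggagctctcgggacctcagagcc

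Matches to the consensus were found in at least 1 window of 6 of the 7 members with a window and in that of Cxcl2. Over all 32851 windows in the table, 3.90% held the consensus in these 250 bases, and 8 of the 12 windows of members did (66.7%). Nfkbia held 1 match, GGGAATTTCC on the opposite strand, from 29 to 20 bases before the start. Cxcl2 held the same 10 letters on its own strand from 97 to 88 bases before the start, and a second match on the other strand lay 1 base nearer to it. The 3 matches in Rel overlapped each other between 92 and 82 bases before the start, and the 2 matches in the second window of Nfkbid lay from 226 to 217 and from 181 to 172 bases before it. The other 2 windows of Nfkbid held none. Nfkbie held 1 match from 106 to 97 bases before its start. In Tnfaip3 the 2 matches lay at 125 to 116 and 12 to 3 bases before 1 of its 2 starts. They lay beyond the first base of an annotated exon, where printing stops, and so did the 6 matches in the 3 windows of Nfkb2. No match was found in these 250 bases of Rela or Tnf. A match of letters is a description of the sequence and does not show binding.

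Nfkbia was the most abundant of the 10 genes, followed by Rel, Tnfaip3 and Nfkb1, and the genes of the noncanonical branch were near the bottom. Levels are UMIs per 10000 UMIs with all cells pooled. Because a transcript is counted at its 3' end, these levels carry no gene length, although capture of an end can differ between genes. The 10 genes together held 7456 UMIs, of which 4821 belonged to the 5 inhibitors and 2635 to the 5 subunits, and 1774 cells (86.3%) had a UMI of at least 1 of them. In the last 300 bases of their transcripts no sequence of read length was shared with another gene.

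**Figure D1:**
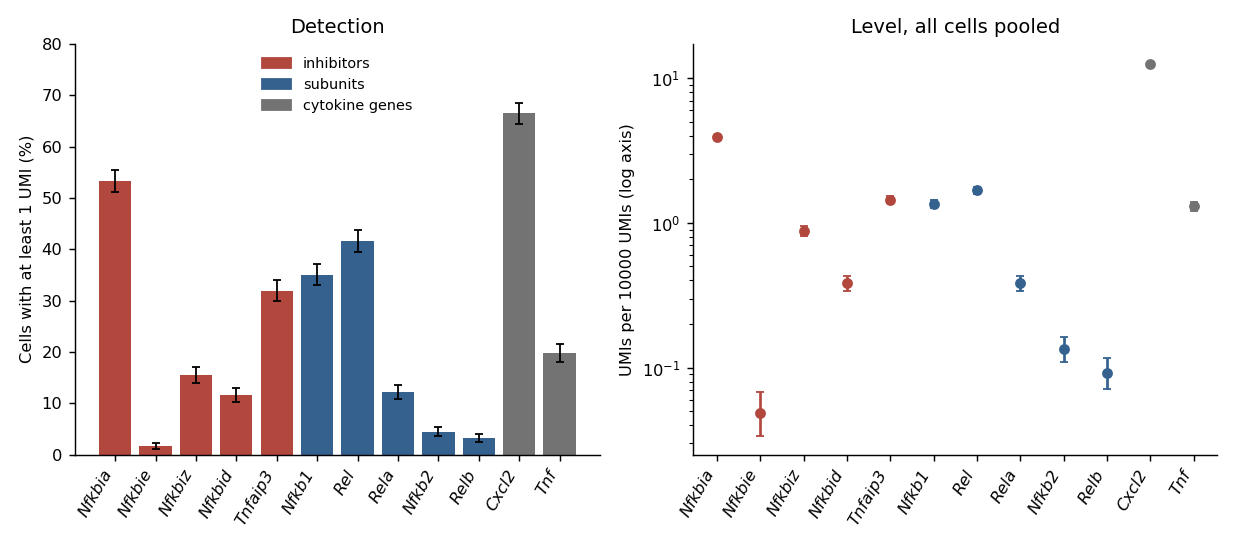
Detection as the share of cells with at least 1 UMI (left, in percent, with 95% Clopper-Pearson intervals) and level as pooled UMIs per 10000 UMIs (right, log axis, with 95% exact Poisson intervals) of the 5 inhibitors, the 5 subunits, Cxcl2 and Tnf in 2055 cells. Nfkbia was detected in 53.3% of cells and Nfkbie in 1.65%.

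Nfkbia encodes IkBalpha, the inhibitor that binds NF-kB dimers in the cytoplasm and is resynthesized soon after its own destruction. It held 2833 UMIs, a level of 3.92 (3.78 to 4.07), and had at least 1 UMI in 1095 cells (53.3%, 51.1% to 55.5%). It stood 421st among the listed genes by UMIs. In 194 cells it had 4 or more UMIs, and the highest cell had 30. The other cytoplasmic IkB of the group, Nfkbie (IkBepsilon), held only 35 UMIs in 34 cells (1.65%, 1.15% to 2.30%), so that the level of Nfkbia was 80.9-fold higher (58.1 to 116). With so few UMIs, nothing below rests on Nfkbie.

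Nfkbiz and Nfkbid encode IkBzeta and IkBNS, IkB proteins of the nucleus that bind NF-kB on DNA and tune a subset of its secondary targets. Nfkbiz held 631 UMIs in 317 cells (15.4%, 13.9% to 17.1%), a level of 0.874 (0.807 to 0.945), with 195 cells at 1 UMI, 52 at 2, 31 at 3 and 39 at 4 or more, up to 13. Nfkbid was lower, with 276 UMIs in 237 cells (11.5%) and a level of 0.382 (0.338 to 0.430), and 209 of its cells had a single UMI. Tnfaip3 encodes A20, a ubiquitin-editing enzyme that shuts down signalling above the IkB kinase. It held 1046 UMIs in 656 cells (31.9%, 29.9% to 34.0%), a level of 1.45 (1.36 to 1.54), and reached 9 UMIs in a cell.

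Among the subunits, the canonical genes Rel and Nfkb1 were well detected and Rela much less so. Rel (c-Rel) held 1215 UMIs in 856 cells (41.7%, 39.5% to 43.8%), a level of 1.68 (1.59 to 1.78). Nfkb1 encodes p105, the precursor of p50, and held 980 UMIs in 720 cells (35.0%) at a level of 1.36 (1.27 to 1.44). Rela (p65), the partner of p50 in the classical dimer, held 277 UMIs in 249 cells (12.1%), a level of 0.383 (0.340 to 0.431), so that the level of Rel was 4.39-fold that of Rela (3.85 to 5.02). The noncanonical pair was scarcer still. Nfkb2, which encodes the precursor of p52, held 97 UMIs in 92 cells (4.48%), and its partner Relb held 66 UMIs in 65 cells (3.16%), a level of 0.0914 (0.0707 to 0.116). Nfkb1 exceeded Nfkb2 by 10.1-fold (8.19 to 12.6), and Rel exceeded Relb by 18.4-fold (14.4 to 24.0). In the annotation Nfkb1 overlaps the unconfirmed gene model Gm43430 on its own strand, and reads from the shared stretch cannot be told apart. That stretch (135650670 to 135654566) lies away from the 3' end of Nfkb1 at 135584655, where its transcripts are counted. Nfkb2 overlaps Psd and a noncoding gene on the other strand, and reads shared with them can be told apart only if the counting used strand.

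In the order of levels, most neighbours differed beyond counting error, but Tnfaip3 and Nfkb1 did not (ratio 1.07, 0.977 to 1.17), nor did Rela and Nfkbid (1.00, 0.846 to 1.19). Detection followed depth. Among the 20% of cells with the fewest UMIs (1143 to 2242), Nfkb1 had a UMI in 22.6% and Rel in 28.2%, against 54.5% and 55.0% of the 20% with the most (4748 to 8603). After each of the 1756 cells with at least 2000 UMIs was thinned to 2000, Nfkbia was detected in 40.6%, Rel in 28.2%, Nfkb1 in 22.7%, Tnfaip3 in 21.7%, Nfkbiz in 11.0% and Nfkbid in 7.05%. An absent UMI in a cell was therefore no evidence that the gene was silent there. Of the 10 members, 7 had a UMI in at least 5% of cells and 3 (Nfkb2, Relb and Nfkbie) did not, while the median over all listed genes was 4.96%.

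Nfkbia, Nfkbiz and Tnfaip3 had the highest variance over mean of the 10 genes across cells. The variance of the UMIs divided by their mean was 4.89 for Nfkbia, 3.49 for Nfkbiz and 1.88 for Tnfaip3, where equal shares in all cells of these depths would give 1.24, 1.05 and 1.09. The other inhibitors were nearer to the value of equal shares, with 1.26 against 1.02 for Nfkbid and 1.04 against 1.00 for Nfkbie. So were the subunits, with 1.18 against 1.10 for Rel, 1.23 against 1.08 for Nfkb1, 1.09 against 1.02 for Rela, 1.06 against 1.01 for Nfkb2 and 0.998 against 1.01 for Relb. This measure rises with the level of a gene as well as with its unevenness. Near-equal values for genes of unlike level, such as Nfkbid (276 UMIs) and Nfkb1 (980 UMIs), therefore do not show that they were spread alike.

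**Figure D2:**
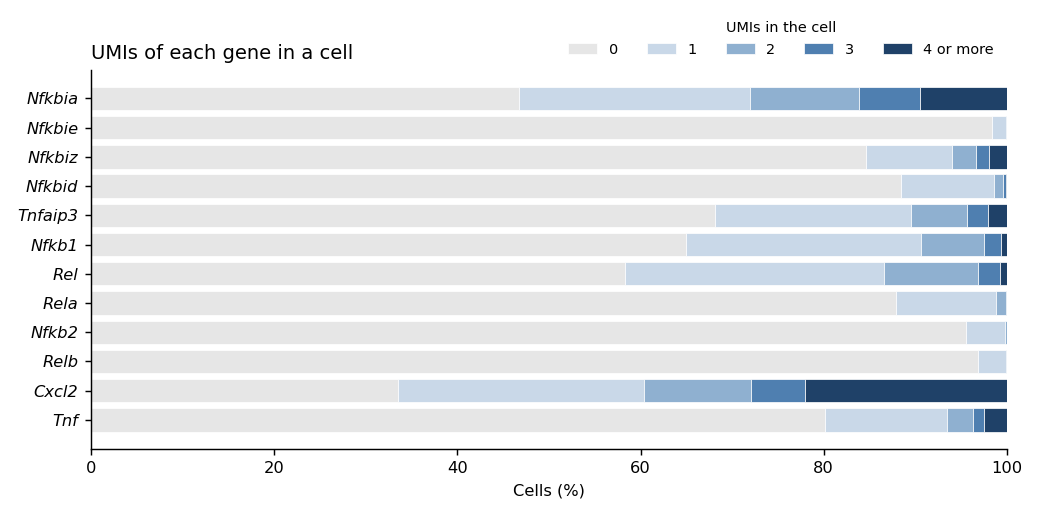
Share of the 2055 cells (percent, horizontal axis) with 0, 1, 2, 3 or at least 4 UMIs of each gene. Nfkbia had 4 or more UMIs in 194 cells and Rel in 15, although the cells with any UMI numbered 1095 and 856.

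The relation with Cxcl2 and Tnf came next. Cxcl2 encodes a neutrophil-attracting chemokine and Tnf the cytokine TNF, and both are known NF-kB targets. Cxcl2 was much more widely detected, with 9052 UMIs in 1367 cells (66.5%) and up to 202 in a cell, and Tnf held 938 UMIs in 407 cells (19.8%). Both had a UMI in 329 cells. Pearson correlations were computed on the natural log values over all 2055 cells, which share 1 library and a common range of depth, and they describe these cells only.

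With Cxcl2, 5 of the 7 members detected in at least 5% of cells had an r of at least 0.1, where 1.3% of 5944 genes with such detection did. The r was 0.42 for Nfkbia, 0.39 for Nfkbiz, 0.28 for Tnfaip3, 0.18 for Nfkbid and 0.16 for Rel, and it was 0.081 for Nfkb1 and 0.033 for Rela. The median over the 7 members was 0.18 and over all these genes 0.0019. The 4 inhibitors therefore stood at the top, with Rel, Nfkb1 and Rela below them in that order.

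With Tnf, 4 of the 7 members reached an r of 0.1, against 0.908% of genes. Nfkbiz had an r of 0.36, Nfkbia of 0.33, Tnfaip3 of 0.25 and Nfkbid of 0.20, while Rel had 0.083, Nfkb1 0.043 and Rela 0.019. These were the same 4 inhibitors. Cxcl2 and Tnf themselves had an r of 0.40 with each other, so the relations with the one and the other are not separate observations.

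Among the members, 8 of 21 pairs had an r of at least 0.1, against 0.176% of all pairs of genes with such detection. The highest were Nfkbia with Nfkbiz (0.34), Nfkbiz with Tnfaip3 (0.28), Nfkbia with Tnfaip3 (0.27) and Nfkbiz with Nfkbid (0.21). Of 317 cells with Nfkbiz, 72.9% also had Nfkbia, whereas 21.1% of the cells with Nfkbia had Nfkbiz. Pairs of subunits were weaker. Nfkb1 with Rel had an r of 0.096, and Rela had at most 0.060 with any of the other 6 members.

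**Figure D3:**
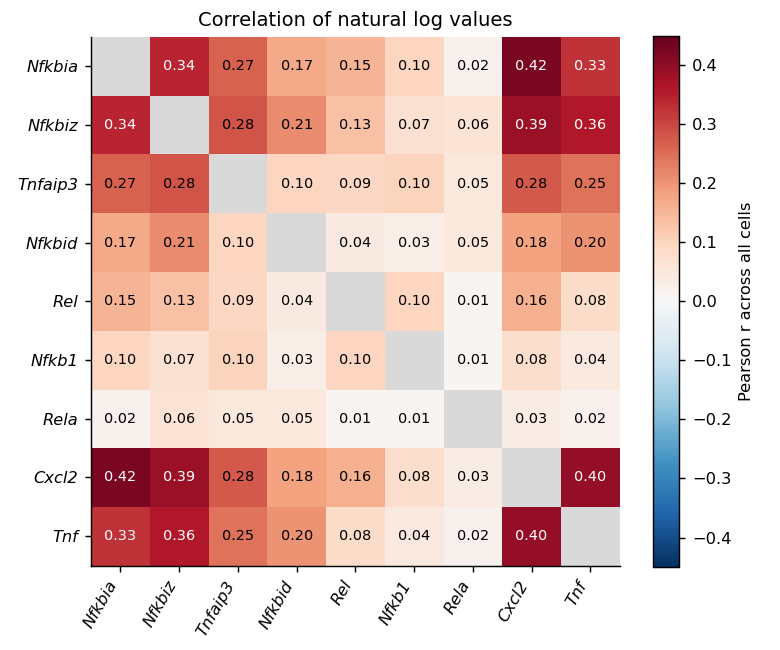
Pearson r of natural log values across 2055 cells between the 7 members detected in at least 5% of cells, Cxcl2 and Tnf (colour and printed value, diagonal left grey). The highest value was that of Nfkbia with Cxcl2, 0.42, and the row of Rela stayed at or below 0.060.

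The size of the relation was read from pooled levels, which do not depend on how sparse a gene is. Cells were put in 3 classes by Cxcl2, with 688 cells without a Cxcl2 UMI, 684 up to the median level of the cells that had one (6.03 per 10000) and 683 above it. Median depths were 2822, 3652 and 3287 UMIs. Between the highest class and the class without Cxcl2, 5 of the 7 members with at least 100 UMIs were at least 1.5-fold higher, where 1.69% of 6146 genes were. The median ratio was 2.07 over the members and 0.970 over all these genes.

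Nfkbiz had the largest ratio among the members. Its level was 1.96 in cells with high Cxcl2 and 0.313 in cells with none, 6.26-fold higher (4.82 to 8.24). Nfkbia was at 7.11 and 2.03, a ratio of 3.50 (3.15 to 3.90). Tnfaip3, the brake on the kinase, was at 2.38 and 0.90, a ratio of 2.65 (2.24 to 3.14), and Nfkbid at 0.578 and 0.279, a ratio of 2.07 (1.52 to 2.86). Among the subunits Rel lay just past the limit of 1.5, with levels of 2.15 and 1.43 and a ratio of 1.51 (1.30 to 1.74), while Nfkb1 was below it at 1.21 (1.03 to 1.42). Rela had a ratio of 1.23 with an interval that held 1 (0.910 to 1.68). The scarce genes Nfkb2 (1.42, 0.846 to 2.43), Relb (1.54, 0.827 to 2.97) and Nfkbie (1.20, 0.539 to 2.75) could not be placed on either side.

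The difference lay in the cells with the most Cxcl2. In the middle class the levels were close to those of cells without Cxcl2, with ratios of 1.01 for Nfkbiz (0.723 to 1.42), 1.13 for Tnfaip3 (0.937 to 1.37) and 1.21 for Nfkbia (1.07 to 1.38), the last being the one interval among the 7 members that did not hold 1. When the 1367 cells with Cxcl2 were divided into 5 groups by its level, Nfkbia was at 2.30 in the lowest group, 3.96 in the next to highest and 12.0 in the highest. Nfkbiz was at 0.272, 0.661 and 3.98 in these groups. The increase was thus steepest at the top. Tnfaip3 was at 0.942, 1.61 and 3.57 in the same groups, and Rel at 1.32, 2.00 and 2.54. Rela was at 0.413, 0.468 and 0.454, with overlapping intervals throughout. The middle class and the lower groups rest on few Cxcl2 UMIs. Of the 1367 cells with Cxcl2, 552 had a single UMI of it. In a cell of median depth 3 UMIs already make 9.15 per 10000. The lowest group was also deeper, with a median of 4398 UMIs against 2822 in cells without Cxcl2. How far such cells differ in Cxcl2 itself, rather than in sampling, was not tested.

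**Figure D4:**
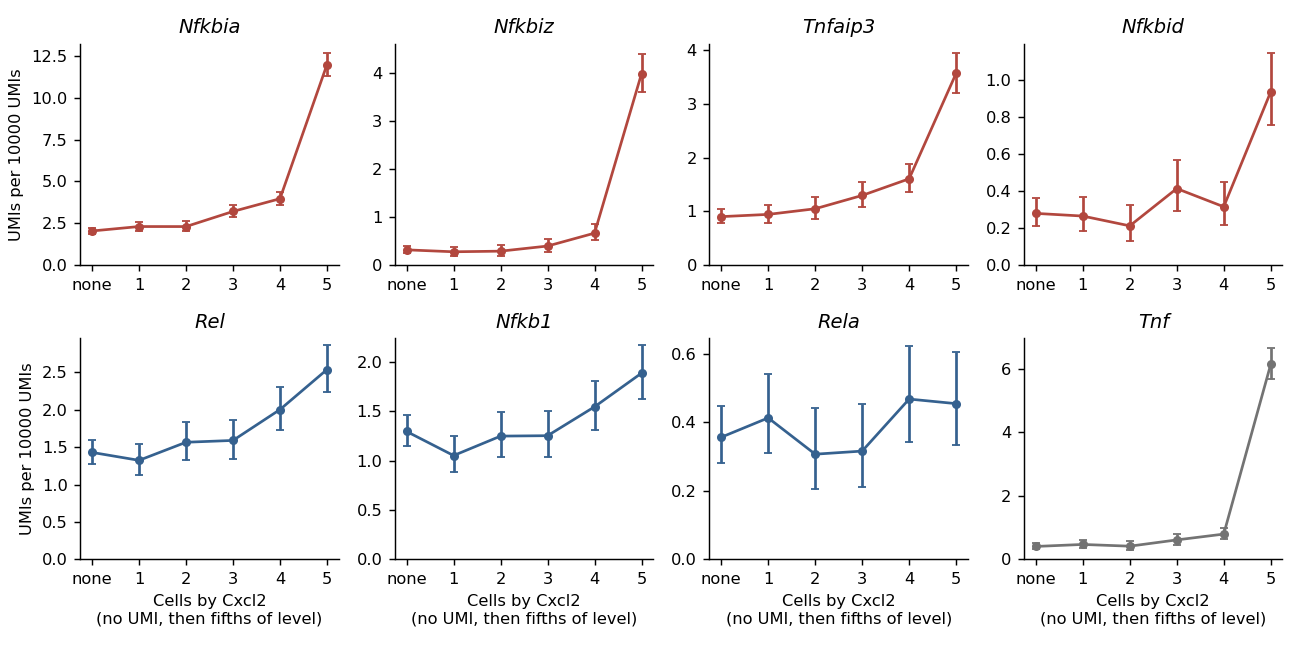
Level of 7 members and of Tnf (UMIs per 10000 UMIs, points with 95% exact Poisson intervals) in the 688 cells without a Cxcl2 UMI and in 5 groups of 272 to 275 cells of increasing Cxcl2 level. Nfkbia reached 12.0 and Nfkbiz 3.98 in the last group, and Rela stayed between 0.307 and 0.468.

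A small set of cells carried much of this. The 103 cells with the highest Cxcl2 level held 5.50% of all UMIs, but 42.8% of the Nfkbiz UMIs, 26.4% of those of Nfkbia, 21.0% of those of Nfkbid and 20.5% of those of Tnfaip3. For the subunits the shares were 8.56% for Rel, 7.86% for Nfkb1 and 5.05% for Rela. The last is close to the share of all UMIs. Seen from the inhibitors, 137 cells (6.67%) had a UMI of Nfkbia, Nfkbiz and Tnfaip3 together, and in them Cxcl2 was at 62.4 and Tnf at 8.43 per 10000, against 3.95 and 0.454 in the 681 cells with none of the 3. Median depths of these sets were 3958 and 2815 UMIs. Rel was at 2.39 and 1.51 in the same sets, and Rela at 0.583 and 0.360.

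Split by Tnf instead, 4 of the 7 members were at least 1.5-fold higher in the 407 cells with a Tnf UMI than in the 1648 cells without, where 1.06% of 6146 genes were. Nfkbiz was at 2.20 and 0.495, a ratio of 4.46 (3.80 to 5.24), and Nfkbia at 7.73 and 2.84, a ratio of 2.73 (2.53 to 2.94). Tnfaip3 had a ratio of 2.18 (1.92 to 2.48) and Nfkbid of 1.99 (1.54 to 2.56). The subunits were closer to 1, at 1.22 for Rel (1.07 to 1.39), 1.16 for Nfkb1 (0.997 to 1.34) and 1.10 for Rela (0.820 to 1.45). Median depth was 3639 UMIs with Tnf and 3187.5 without.

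Egr1, an immediate-early transcription factor that many stimuli induce, moved with these cells, and the relations were therefore computed again within the cells without and with an Egr1 UMI, a split added after seeing the data. In the 1470 cells without Egr1, the ratio between high and no Cxcl2 was 1.81 for Nfkbia (1.58 to 2.08), 1.83 for Tnfaip3 (1.48 to 2.26), 1.74 for Nfkbiz (1.20 to 2.56), 1.29 for Rel (1.08 to 1.53) and 1.32 for Nfkbid (0.875 to 2.00). In the 585 cells with Egr1 it was 5.96 for Nfkbia (4.74 to 7.60), 3.61 for Tnfaip3 (2.56 to 5.21), 9.92 for Nfkbiz (6.03 to 17.5) and 1.87 for Rel (1.38 to 2.60). For Nfkbid it was 3.43 (1.83 to 7.11). These intervals hold counting error only, and no share of all genes was computed for this split. Whether the intervals of a member overlap between both sets of cells is therefore not read as a result. The median Cxcl2 level that bounds the high class was taken anew in each set. The high class held 448 of the cells without Egr1 and 235 of those with it. High Cxcl2 was therefore not the same cut in both sets, and these ratios do not compare like classes. Without Egr1, the ratio between cells with and without Tnf was 1.18 for Nfkbia (1.02 to 1.36), 1.42 for Tnfaip3 (1.14 to 1.74) and 1.29 for Nfkbiz (0.854 to 1.90). Here 0 of 7 members reached 1.5, and no r with Tnf reached 0.1. The share of all genes that did so in these cells was not computed, so the counts have no background. With Egr1 the ratio for Tnf was 3.37 for Nfkbia (3.03 to 3.75), 2.38 for Tnfaip3 (1.99 to 2.86) and 4.06 for Nfkbiz (3.32 to 4.99). Nfkbid was at 0.935 without Egr1 (0.566 to 1.48) and 2.76 with it (1.91 to 4.00). What part the immediate-early genes, or the digestion of the lung before sorting, have in the relation was not tested.

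**Figure D5:**
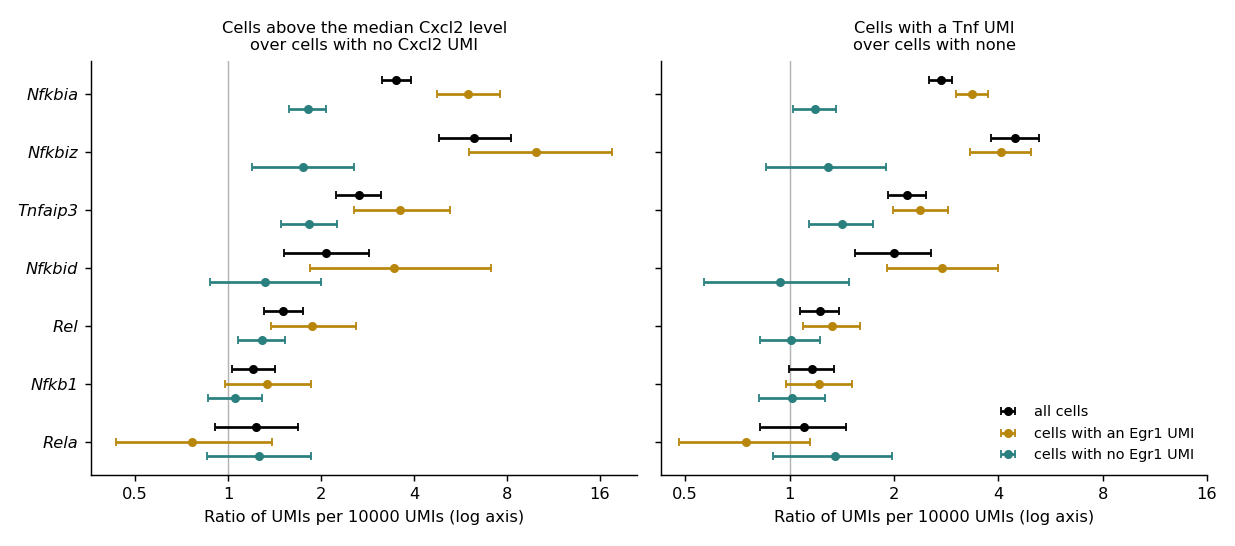
Ratio of pooled levels (log axis, 95% intervals for counting error) between cells with high and no Cxcl2 (left) and between cells with and without Tnf (right), for 7 members in all 2055 cells, in the 585 cells with an Egr1 UMI and in the 1470 cells without. For Nfkbia, Nfkbiz and Tnfaip3 the values without Egr1 lay between 1.18 and 1.83 and those with Egr1 between 2.38 and 9.92. The cut for high Cxcl2 was the median of the cells with a Cxcl2 UMI within each set, so it differs between sets.

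The genes most like each member across cells included other members in 5 of 12 places and Cxcl2 in 3. For the 4 members detected in at least 20% of cells, the 3 genes with the highest r among those in at least 5% of cells were Cxcl2, Nfkbiz and Tnf for Nfkbia, and Nfkbiz, Cxcl2 and Nfkbia for Tnfaip3 (0.27 to 0.28). For Rel they were Cxcl2 (0.16), Nfkbia (0.15) and Tnfaip2 (0.15), a gene that TNF induces. For Nfkb1 they were Hmox1 (0.13), which encodes heme oxygenase, Azi2 (0.10), which encodes an adaptor of the kinase TBK1, and Tnfaip3 (0.10), values too weak in such sparse counts to set these genes apart. An r of at least 0.1 was reached with 57 genes by Nfkbiz, 48 by Nfkbia, 41 by Tnfaip3, 14 by Nfkbid, 13 by Rel, 3 by Nfkb1 and 0 by Rela.

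The wider pathway was read from 3 lists, and no test compared them. Of the kinases and adaptors that carry the signal from receptors to the IkB kinase, 20 of 21 were listed and 13 had at least 100 UMIs. In high Cxcl2 cells 0 of the 13 were at least 1.5-fold higher, with a median ratio of 0.916, and 1, Traf6, was at least 1.5-fold lower (0.191 against 0.303, ratio 0.631, 0.423 to 0.935). The share of all genes at least 1.5-fold lower was not computed, so lower genes in this list and those below have no background. The highest ratio among the 13 was that of Map3k8, the kinase Tpl2 (1.11, 0.895 to 1.38). The most abundant, Ikbkb, which encodes the catalytic subunit IKKbeta, was at 2.74 and 2.71.

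Of 16 other inhibitors, 11 had at least 100 UMIs and 2 of them were at least 1.5-fold higher. These were Tnip1, which encodes the A20 partner ABIN1 (0.199 against 0.0866, ratio 2.30, 1.32 to 4.2), and Nfkbib, which encodes IkBbeta (0.435 against 0.274, ratio 1.59, 1.14 to 2.23). Nfkbil1 was at 0.114 and 0.226, a ratio of 0.504 (0.304 to 0.821). The median ratio was 1.01. Unlike Nfkbia and Tnfaip3, then, most genes of this list stood near 1, among them the deubiquitinase gene Cyld at 1.01 (0.753 to 1.36).

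Of 27 known targets besides Cxcl2, Tnf and the members, 25 were listed, and 21 had at least 100 UMIs and 11 of them were at least 1.5-fold higher, with a median ratio of 1.99. The chemokine Cxcl1 had the largest ratio, with levels of 2.17 and 0.125 (17.4, 11.7 to 26.8), followed by the cytokine Il6 at 0.924 and 0.111 (8.35, 5.43 to 13.4). The lowest was Tnfrsf1b, a TNF receptor, at 0.920 (0.753 to 1.13). Thus 10 of the 21 targets, Birc3 and Bcl2l1 among them, stayed under 1.5-fold.

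Other lists were read beside these. Among immediate-early genes 6 of 14 were at least 1.5-fold higher in high Cxcl2 cells, led by Egr1 (5.14 against 0.929, ratio 5.53, 4.75 to 6.47), while Fos was at 1.30 and Atf3 at 1.03. Their summed level was 49.5 in cells without Cxcl2, 49.997 in the middle class and 70.1 in the high class. Of the heat shock genes 1 of 9 reached 1.5-fold (Hspa1a, 1.58, 1.25 to 1.99). Of the cell cycle genes 0 of 11 did, with Ccnb2 lower at 0.558 (0.348 to 0.884). Of the MHC class II genes 0 of 6 did, and of the interferon-induced genes 0 of 1. That 1 gene was Ifi204 (1.12, 0.779 to 1.61), and the other listed interferon-induced genes had too few UMIs for ratios. The summed level of this list was 0.428 without Cxcl2, 0.446 in the middle class and 0.908 in the high class. It includes Cxcl10, also among the targets, at 0.330 in the high class and 0.0337 without Cxcl2. The summed level of AM markers was 248, 253 and 259 in the 3 classes, that of neutrophil markers 0.756, 0.666 and 0.814, that of monocyte markers 3.17, 3.38 and 3.22 and that of epithelial markers 3.40, 3.56 and 3.61. B cell markers stood at 0.168, 0.0967 and 3.94, but 1 cell of the high class held 940 Jchain UMIs, 93.4% of all of them, and without it the high class was at 0.0897. The ratios of Nfkbia (3.50) and Nfkbiz (6.26) were as large without that cell. The part of other cells or of free RNA in these relations was not tested.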

How the data were processed

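Wild-type AMs were measured in 1 library by 10x Genomics 3' single-cell RNA-seq. The authors aligned reads to mm10 with Cell Ranger, filtered cells and genes, and deposited with Seurat values on a natural log scale, scaled to 10000 UMIs in each cell with 1 added before the log. The authors also deposited a scaled score of the same values after regression on depth and mitochondrial content. Over the listed genes, the stated mitochondrial limit of 5% was exceeded by 384 deposited cells, which were kept here. The paper's methods name genes that were removed, such as those of ribosomal proteins. The share over the listed genes may therefore differ from the one the authors filtered on. The exponential of the natural log less 1 was a whole multiple of 1 step in each cell for 100% of values (tolerance 0.01), which gave whole UMIs.

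Detection has 95% Clopper-Pearson intervals, levels exact Poisson intervals and ratios exact conditional intervals. Correlations needed a UMI in 5% of cells, and ratios 100 UMIs. The text names all members, Cxcl2, Tnf, the highest and lowest pathway genes and the 3 nearest genes of members in 20% of cells. Other genes (Birc3, Bcl2l1, Cyld, Ikbkb, Nfkbib, Il6, Ccnb2, Hspa1a, Egr1, Fos, Atf3, Ifi204 and Cxcl10) were picked after their values were seen. Members and lists were chosen with earlier results of these data known. Gene models were GENCODE M21. No doublet caller was run, and the authors excluded cells with many genes. Steps were tested on simulated data. Python 3.11.15, numpy 2.4.6, scipy 1.17.1, pandas 2.3.3 and matplotlib 3.10.9 were used.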

Additional observations from a re-analysis of the deposited data

How the results depend on the processing

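No paired analysis was possible because there was 1 library. Of 44 alternatives set at the start for the 6 counts of members, 42 stayed within 1.5 times the count reported. The other 2 asked for an r of at least 0.2, which left 3 of 5 members with Cxcl2 (Nfkbia, Nfkbiz and Tnfaip3) and 4 of 8 pairs. Rel, just past 1.5-fold in high Cxcl2 cells, fell below it with the mean over cells, without the 1% of cells with the highest Cxcl2 level (1.48) and against the middle class, and Nfkb1 passed it after thinning (1.51), as did Relb with no minimum of UMIs. Of 7 alternatives chosen after seeing the data, 5 kept cells with no Egr1 UMI. They gave 4 members correlated with Cxcl2, 0 with Tnf, 2 pairs, 3 members higher with high Cxcl2 and 0 higher with Tnf. No share of all genes was computed in these cells to set beside those counts. The 2 that left out the cell with the most Jchain UMIs changed neither count. The level of Nfkbia was 3.76 as a mean over cells and 4.08 in cells with at most 5% mitochondrial UMIs, and the other 9 levels stayed within their intervals. Depth limits Nfkb2, Relb and Nfkbie, with 97, 66 and 35 UMIs.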
